A study of Mus musculus with 15 samples.

Results

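The proteasome genes were taken by symbol: every mouse protein-coding gene named Psma, Psmb, Psmc, Psmd or Psme followed by a digit, which gave 45 of the 49315 gene IDs measured (21811 of them protein-coding). They held 14 genes of the core particle (Psma1 to Psma7 and Psmb1 to Psmb7) and 17 of the regulatory particle (Psmc1 to Psmc6, Psmd1 to Psmd4, Psmd6 to Psmd8 and Psmd11 to Psmd14). The other members were 3 assembly chaperones (Psmd5, Psmd9, Psmd10), 4 activators (Psme1 to Psme4), 3 immunoproteasome subunits (Psmb8, Psmb9, Psmb10), the testis form Psma8 and the thymus form Psmb11. Psme2b and Psmc3ip matched the symbol rule without being known subunits and were kept out of the particle summaries. Polyadenylated RNA came from primary myoblasts, the precursor cells of muscle fibres, of wild-type C57BL/6J mice. The cells received siRNA against Lmod1, which encodes the actin nucleator leiomodin 1 (siLmod1), siRNA against Sirt1, which encodes the NAD-dependent deacetylase sirtuin 1 (siSirt1), or control siRNA (siCtrl). All 3 groups were transfected with siRNAiMax and differentiated for 1 day, and each held 5 libraries, numbered 1, 2, 3, 4 and 7. The study's design text speaks of 5 separate primary lines, so a number is read here as a line, and values listed for a group are in the line order 1, 2, 3, 4, 7.

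The proteasome degrades proteins that carry ubiquitin chains. Its barrel-shaped core particle has outer rings of alpha subunits, which gate the entry, and inner rings of beta subunits, of which Psmb5, Psmb6 and Psmb7 cut peptide bonds. The regulatory particle caps the barrel: a lid removes ubiquitin, and a base with ATPase subunits unfolds the substrate and opens the gate. In mammalian cells with impaired proteasomes the transcription factor NRF1 (Nfe2l1) raises subunit genes together, through antioxidant response elements in their promoters, and muscle relies on the complex for much of its protein turnover.

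To set the letters of that element beside the values, promoter stretches are shown for the 7 members with a match that were called against siCtrl in either knockdown. Windows from 250 bases before to 50 bases after the start came from RefSeq (GRCm38.p6) and covered 38 of the 45 members in 41 windows. The letters TGACNNNGC and TGAGNNNGC were searched on both strands. Each stretch is written 5′ to 3′ on the gene's strand with the match in capitals, in the reverse orientation where it begins with GC, and no capital letter belongs to another motif searched.
Psma5: ccaaagcgcgGCGTGCTCActcctcgacg
Psma6, upstream start: gtcaggtcagGCAACCTCAtcagctctca
Psma6, downstream start: gcgagggcccGCCTACTCAggggcagtgc
Psma7: gcgctgacggTGAGTGTGC
Psmd13: gtgccggaagTGAGCGAGCacttccgtgc
Psmb5: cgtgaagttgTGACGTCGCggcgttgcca
Psmb6: ctaaagagagTGACGGAGCgctttacgac
Psmb3: gcgttgacccTGAGAAAGCcagagccggt
The stretches of Psma5, Psma6, Psma7 and Psmd13, genes that rose in siLmod1, lay at chr3:108256924-108256952 (plus strand), chr12:55384042-55384070 and chr12:55398723-55398751 (plus), chr2:180042415-180042433 (minus) and chr7:140882385-140882413 (plus). Those of Psmb5, Psmb6 and Psmb3, which fell in siSirt1, lay at chr14:54618024-54618052 (minus), chr11:70525338-70525366 (plus) and chr11:97703414-97703442 (plus). TGACNNNGC was present in 6 of the 41 windows (14.63%) and in 12.39% of all 32851 promoter windows. TGAGNNNGC was present in 13 (31.71%) and in 17.65% of all windows, and either form in 17 (41.46%) and in 27.79%. For contrast, CCAAT was in 36.59% of the member windows and 37.41% of all windows, and the E-box CANNTG in 58.54% and 72.31%. Either form matched in 16 of the 38 members with a window. Psma4, Psmc2, Psmc6, Psmc3ip, Psmd1, Psmd5, Psmd9, Psmd12 and Psme4 had a match and were not called against siCtrl. The other called members had no match or no window. Psmb5, set here among genes that fell in siSirt1, also rose in siLmod1. A match describes these letters and was not tested as a binding site, and a link to the calls was not tested.

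Counted reads per library numbered 27135398 to 31829009 in siLmod1, 21004908 to 27815744 in siSirt1 and 26097889 to 33601761 in siCtrl, so that 3 reads correspond to 0.0893 to 0.143 CPM (counts scaled to library size). The siSirt1 libraries of lines 4 and 7 had reads in 20189 and 19226 genes, against 21791 to 23192 in the other 13. The targeted transcripts were lower under their own siRNA. Lmod1 had 2.01, 4.25, 3.3, 1.08 and 3.29 TPM (length-scaled transcript share) in siLmod1, against 18.4, 32.6, 29.8, 4.46 and 33.9 TPM in siCtrl. Sirt1 had 3.07, 2.02, 2.21, 6.71 and 6.06 TPM in siSirt1, against 16.1, 9.79, 13.5, 15.1 and 20.9 TPM in siCtrl. Under the other siRNA, Lmod1 had 7.47, 25.5, 20.9, 2.92 and 13.1 TPM in siSirt1, and Sirt1 had 23.5, 16.1, 20.4, 21.3 and 31.6 TPM in siLmod1. An exact two-sided permutation test of mean log2 CPM gave p = 0.00794 for each gene under its own siRNA, the smallest that 5 against 5 libraries allow. The myoblast factor Myod1 averaged 1379 TPM in siLmod1, 1550.2 in siSirt1 and 1305 in siCtrl. Other myoblast markers differed in direction. Des, Myog, Cdh15, Chrna1 and Myf5 had lower means in siSirt1 than in siCtrl. They were 1780, 3920, 526, 1653 and 90.8 TPM against 2373, 4281, 599, 1915 and 114 TPM. Pax7 averaged 50.6 TPM in siSirt1 and 32.9 TPM in siCtrl, and Myf5 ranged from 3.24 to 422 TPM over the 15 libraries. The 8 leukocyte markers summed to 4.96 to 12.2 TPM per library. Among them Ptprc was at most 0.011 TPM, while Cd68 had 2.04 to 6.69 TPM and Itgam and Csf1r reached 4.04 and 3.70 TPM. The endothelial marker Tek had 58.0, 29.7 and 62.3 TPM in line 4 of siLmod1, siSirt1 and siCtrl, and at most 0.712 TPM in other lines. Libraries with the same number deviated together (median correlation 0.681 over 15 pairs and 15716 genes), with the least clear link for the siSirt1 library of line 1, whose correlations with the line 1 libraries of siLmod1 and siCtrl were 0.277 and 0.253. It correlated at 0.269 with the line 3 library of siCtrl, so its line is in doubt, and every blocked siSirt1 value uses it. Blocked calls of siSirt1 are therefore also given without line 1.

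Every gene of both particles was abundantly transcribed, at levels that differed several-fold between subunits that enter the complex in equal numbers. Over all 15 libraries the mean level of core genes lay between 132 TPM for Psma1, an alpha ring subunit, and 593 TPM for Psmb1, a noncatalytic beta subunit, which is 4.5-fold. Regulatory genes spanned 7.28-fold, from 88.6 TPM for the lid subunit Psmd11 to 645 TPM for the base ATPase Psmc3. The median gene had 308 TPM in the core and 236 TPM in the regulatory particle. Assembly chaperones of the base were lower, with mean levels in siCtrl of 57.5 ± 6.42 TPM for Psmd10, 38.1 ± 14.2 TPM for Psmd5 and 14.1 ± 1.08 TPM for Psmd9 (SD, n = 5). Among activators, Psme3 and Psme4, which encode the nuclear activator PA28 gamma and PA200, stood at 122 ± 8.3 and 109 ± 25.4 TPM in siCtrl. Psme1 and Psme2, the interferon-inducible PA28 alpha and beta, stood at 26.7 ± 6.53 and 47.2 ± 13.8 TPM there.

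**Figure D1:**
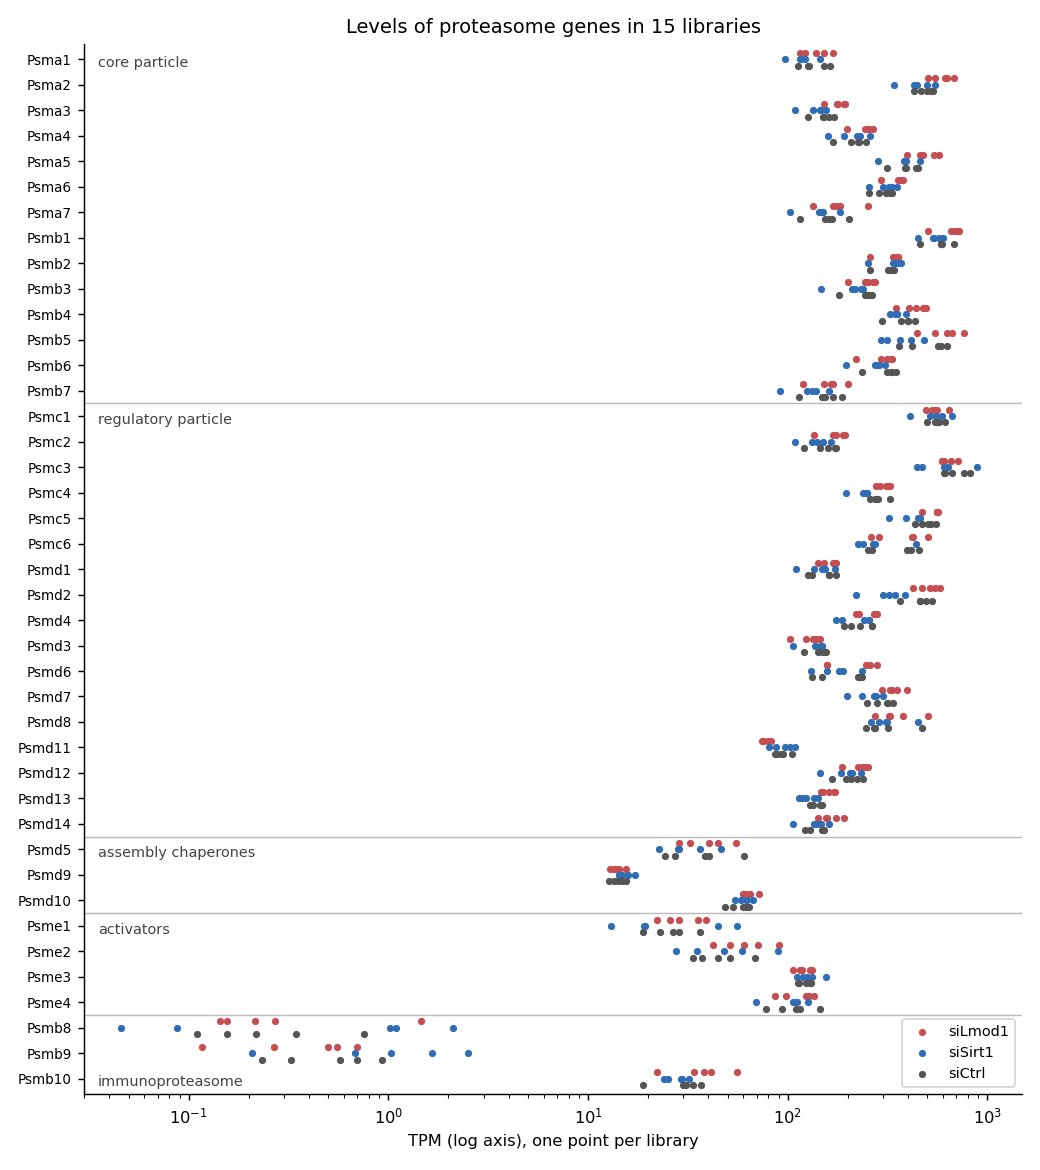
TPM of 41 proteasome genes (rows, grouped by role) on a log axis, 1 point per library and 1 colour per group, with siLmod1 above siSirt1 above siCtrl in each row. Genes of the core and regulatory particles lie between 74.0 and 891 TPM in every library, and Psmb8 and Psmb9 lie at or below 2.52 TPM.

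Tissue-restricted forms were nearly absent. Psma8 had 0 reads in all 15 libraries, which allows at most 0.0893 to 0.143 CPM per library, and Psmb11 had 21 reads in all. Of the 45 members, 42 passed the filter on low counts in each comparison. The 3 that did not were Psma8, Psmb11 and Psmb8, and all 31 genes of the core and regulatory particles passed.

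Several members followed the line more closely than the siRNA. The clearest were on chromosome 14, which carries Psmb5, Psmc6, Psmd6, Psme1, Psme2 and Psmb11. The ATPase gene Psmc6 had 288, 507, 261, 421 and 427 TPM in siLmod1, 238, 439, 226, 267 and 275 TPM in siSirt1 and 251, 457, 265, 398 and 413 TPM in siCtrl. The lid gene Psmd6 had 158, 279, 157, 259.8 and 247 TPM in siLmod1, 157, 234, 131, 179.9 and 189 TPM in siSirt1 and 132, 235, 149, 225 and 227 TPM in siCtrl. Lines 1 and 3 were the lowest in every group for Psmd6 and Psmc6, and line 2 was the highest. The other genes of this chromosome did likewise: the median of 279 genes with a mean log2 CPM over 3, members left out, lay -0.53 to -0.31 log2 units from its 15-library mean in the 6 libraries of lines 1 and 3, and 0.16 to 0.42 in the 9 of lines 2, 4 and 7. That spread of 0.947 was the widest of the chromosomes, followed by 0.557 for chromosome 10. In the siSirt1 libraries of lines 4 and 7 the members split. The chromosome medians there were 0.35 and 0.35, and Psme1 at 0.97 and 0.58 and Psme2 at 0.13 and 0.67 were likewise above 0, while Psmb5 stood at -0.28 and -0.54, Psmc6 at -0.37 and -0.40 and Psmd6 at -0.16 and -0.16.

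**Figure D2:**
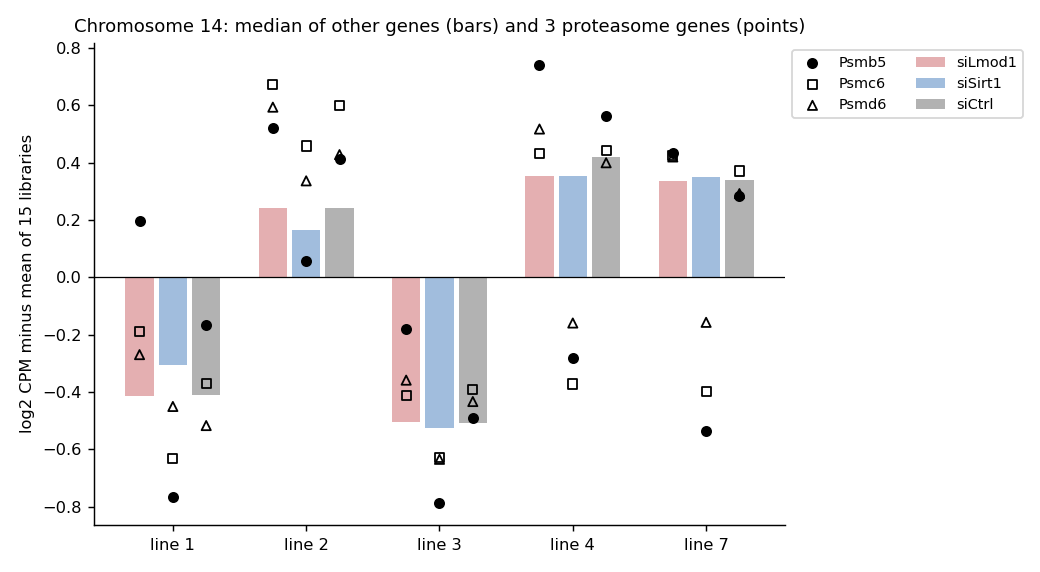
Deviation of log2 CPM from the mean of the 15 libraries, by line and group: bars give the median of 279 other genes of chromosome 14, and points give Psmb5, Psmc6 and Psmd6. Bars are below 0 in lines 1 and 3 and above 0 in lines 2, 4 and 7 in all 3 groups, and the 3 proteasome genes stand lower in siSirt1 than in siCtrl in every line but for Psmd6 in line 1.

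The comparison of siSirt1 with siCtrl addresses which early transcripts respond to loss of Sirt1. All 31 core and regulatory genes had a log2 fold change below 0, and 23 of them were lower in siSirt1 in each of the 5 lines (12.3% of 15716 genes were), while none was higher in all 5 (11.9% of all genes). With the line as a block, 8 members fell and none rose, of 42 tested. That block fit called 7.07% of 14912 genes (4.35% lower, 2.72% higher). The 8 were the catalytic subunits Psmb5, Psmb6 and Psmb7, the beta ring subunit Psmb3, the ATPases Psmc4 and Psmc5, the base scaffold Psmd2 and the lid subunit Psmd7. In edgeR's fit of the group alone, 0 members and 0.127% of genes were called at an adjusted p under 0.05. An unadjusted p under 0.05 was seen for 6 of 42 members and 1440 of 14912 genes. DESeq2 called 2 members, Psmc4 and Psmd2, and 390 of 14912 genes. With the group alone the adjusted p of these 8 was 0.21 to 0.59. In bulk RNA, fewer cells of a type and less RNA per cell cannot be told apart. Blocked p-values speak for how far the differences within a line vary over these 5 lines, and group-only p-values for the spread between libraries.

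Psmd2, which encodes the base scaffold RPN1 that docks ubiquitin-binding shuttles, had the lowest log2 fold change of the core and regulatory genes. It had 389, 346, 301, 321 and 219.8 TPM in siSirt1, against 529, 461, 462, 491 and 367 TPM in siCtrl. The siSirt1 value was lower in 5 of 5 lines, and the groups overlapped only through siSirt1 line 1 and siCtrl line 7. Its log2 fold change was -0.69 (SE 0.18, adjusted p = 0.21) with the group alone, -0.70 (SE 0.093, adjusted p = 0.0081) with the block and -0.73 (adjusted p = 0.028) with the block and without line 1. It was the only one of 43 members still called without line 1, in a fit that called 332 of 15066 genes. Leaving out any other line left 1 or 2 member calls, Psmd2 in each case and Psmb5 without line 2 or 3. Without lines 2, 3, 4 and 7 the fits called 411 of 14991, 398 of 14863, 525 of 15048 and 580 of 15048 genes.

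Psmb5, the subunit with chymotrypsin-like activity, was next. It had 316, 485, 295, 414 and 363 TPM in siSirt1, against 422, 584, 360.0, 631 and 566 TPM in siCtrl. The ranges overlapped widely, both groups being low in lines 1 and 3, and within each line siSirt1 was lower, by 0.60, 0.35, 0.30, 0.85 and 0.82 log2 units in lines 1, 2, 3, 4 and 7. The blocked log2 fold change was -0.58 (SE 0.11, adjusted p = 0.021), and without line 1 it was -0.59 (adjusted p = 0.066). Psmb7, with trypsin-like activity, had 133, 161, 125, 139 and 91.4 TPM in siSirt1, against 148, 169.7, 154, 188 and 113 TPM in siCtrl. Psmb6, with caspase-like activity, had 273, 306, 281, 286 and 197 TPM in siSirt1, against 315, 347, 331, 335 and 237 TPM in siCtrl. Both were lower in siSirt1 in 5 of 5 lines with overlapping ranges. Their blocked log2 fold changes were -0.39 (SE 0.094, adjusted p = 0.046) for Psmb7 and -0.36 (SE 0.076, adjusted p = 0.033) for Psmb6, and neither passed without line 1 (adjusted p = 0.11 and 0.09). Psmb3 had a log2 fold change with the block of -0.33 (adjusted p = 0.049). The counterparts among beta genes were Psmb2 at -0.072, Psmb4 at -0.23 and Psmb1 at -0.24, none of which passed. Reads of Psmb7 cannot be told apart from those of Nek6 on the opposite strand over 405 shared exonic bases.

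In the base, Psmc4 (RPT3) had 249, 246, 250.4, 237 and 197 TPM in siSirt1, against 325, 282, 276, 274 and 259 TPM in siCtrl. Every siSirt1 library was below every siCtrl library, which held for 0.834% of all genes and for no other member, and no member was above siCtrl in that way (2.27% of all genes). Psmc4 had a blocked log2 fold change of -0.40 (SE 0.091, adjusted p = 0.039). Psmc5 (RPT6) had 459, 448, 455, 393 and 321 TPM in siSirt1, against 502, 522, 553, 471 and 434 TPM in siCtrl, and a log2 fold change with the block of -0.40 (adjusted p = 0.032). Its siSirt1 values in lines 4 and 7 were the lowest, and those of lines 1, 2 and 3 overlapped the siCtrl range. Of the other ATPases, Psmc6 had -0.44 (adjusted p = 0.071), Psmc3 -0.36 (adjusted p = 0.13), Psmc2 -0.29 (adjusted p = 0.061) and Psmc1 -0.18 (adjusted p = 0.27). In the lid, Psmd7 (RPN8), the partner of the deubiquitinase, had 299, 276, 272, 235 and 199 TPM in siSirt1, against 319.6, 316, 337, 281 and 249 TPM in siCtrl. It was lower in 5 of 5 lines with overlapping ranges, at a blocked log2 fold change of -0.37 (SE 0.079, adjusted p = 0.032). Psmd14 (RPN11), the lid deubiquitinase itself, stood at -0.17 (adjusted p = 0.24), and the ubiquitin receptor Psmd4 (RPN10) at -0.20 (adjusted p = 0.19). Without line 1 the blocked adjusted p was 0.11 for Psmc4, 0.07 for Psmc5 and 0.069 for Psmd7.

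In the alpha ring, where none passed, blocked values in siSirt1 were -0.33 for Psma1, -0.27 for Psma2, -0.28 for Psma3, -0.16 for Psma4, -0.20 for Psma5, -0.089 for Psma6 and -0.28 for Psma7. Among the remaining base and lid subunits they were -0.21 for Psmd1, -0.21 for Psmd3, -0.25 for Psmd6, -0.083 for Psmd8, -0.11 for Psmd11, -0.22 for Psmd12 and -0.30 for Psmd13.

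Both particles had medians below that of all genes, and the difference between them was not tested. In the fit of the group alone the median log2 fold change was -0.27 for the 14 core genes and -0.26 for the 17 regulatory genes, against 0.019 for all genes, and with the block it was -0.27 and -0.25, against 0.0068. The median core difference was -0.22, -0.15, -0.19, -0.40 and -0.37 in lines 1, 2, 3, 4 and 7, and the median regulatory difference was -0.22, -0.14, -0.19, -0.32 and -0.45. Lines 4 and 7, in which all 31 genes were lower, were also the lines whose siSirt1 libraries had reads in the fewest genes, and the part of this in the result was not tested. In lines 1, 2 and 3, 27, 27 and 29 of the 31 genes were lower. With the block 1 of 5 fibroblast markers rose (Dcn), 1 of 6 smooth muscle and pericyte markers fell and 0 of 7 myoblast markers passed. Dcn had at most 4.01 TPM in siSirt1 and 0.704 TPM in siCtrl. The median of the myoblast markers was -0.32 with the group alone and -0.34 with the block. Des, Cdh15 and Chrna1 were lower in 5 of 5 lines, Myog in 4 and Myf5 in 3, while Myod1 was higher in 4 and Pax7 in 3. Myoblast markers summed to 8096 to 10350 TPM in siSirt1 and 9350 to 12570 TPM in siCtrl. Fibroblast markers summed to 38.3 to 279.6 TPM in siSirt1 and 38.8 to 175.5 TPM in siCtrl. The part of these lists in the result was not tested. Under library totals with the block 797 genes were called higher and 441 lower, against 406 and 648 under TMM, and 2 members fell. Scaling by library totals alone moved the median of all genes to 0.13 and the core and regulatory medians to -0.15 and -0.145, so that relative to all genes the core stood at -0.29 and the regulatory particle at -0.28.

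**Figure D3:**
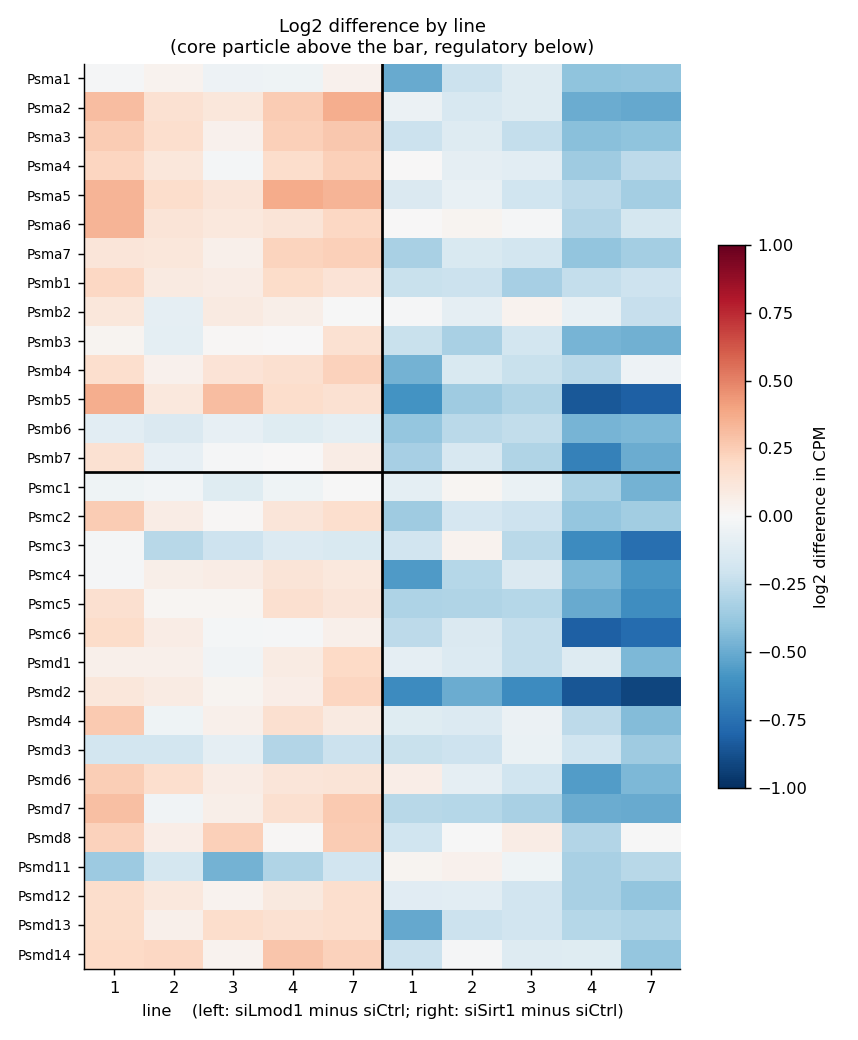
Log2 difference in TMM-scaled CPM by line for the 14 core genes (above the bar) and 17 regulatory genes (below it), siLmod1 minus siCtrl in the left 5 columns and siSirt1 minus siCtrl in the right 5. Blue, lower than siCtrl, fills nearly all of the siSirt1 columns and is deepest in lines 4 and 7, and Psmd2 and Psmb5 are the darkest rows.

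Knockdown of Lmod1, compared with siCtrl, went with small changes of both signs. With the block, 12 of 42 members rose and 3 fell, in a fit that called 29.5% of 15022 genes (12.9% higher, 16.5% lower). In the core, 7 of 14 genes rose and none fell: Psma2, Psma3, Psma5, Psma6 and Psma7 of the alpha ring and Psmb4 and Psmb5 of the beta ring. In the regulatory particle 3 of 17 rose (Psmd6, Psmd13, Psmd14) and 3 fell (Psmc3, Psmd3, Psmd11). Psme2 and Psmb10 rose as well. The largest change in either particle was 0.31 log2 units in size. These counts moved with the scaling. Under library totals with the block, 9 core genes rose, and in the regulatory particle 10 rose and 2 fell. That fit called 2741 of 15022 genes higher and 1978 lower. With the group alone, edgeR called 0 members and 0.113% of genes. An unadjusted p under 0.05 was seen for 1 of 42 members and 1351 of 15022 genes. DESeq2 called 1 member, Psmd11, and 357 of 15022 genes. Without line 1 the blocked fit called 6 of 42 members and 2833 of 15079 genes. Of these members Psma2, Psma5 and Psme2 were higher and Psmc3, Psmd3 and Psmd11 lower.

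Psma5, an alpha ring subunit, had 571, 462, 475, 542 and 397 TPM in siLmod1, against 447, 387, 437, 393 and 316 TPM in siCtrl. The ranges overlapped, yet siLmod1 was higher in 5 of 5 lines, and the log2 fold change was 0.26 (SE 0.12, adjusted p = 0.58) with the group alone and 0.26 (SE 0.052, adjusted p = 0.0044) with the block. Psma2 had 626, 615, 504, 681 and 549 TPM in siLmod1, against 502, 525, 465, 535 and 429 TPM in siCtrl, higher in 5 of 5 lines, with a blocked log2 fold change of 0.23 (SE 0.05, adjusted p = 0.0069). Psmb5 had 547, 665, 447, 761 and 626 TPM in siLmod1, with a blocked log2 fold change of 0.21 (SE 0.052, adjusted p = 0.012). It was thus called in both knockdowns against the same siCtrl libraries, higher in siLmod1 and lower in siSirt1. The blocked values of the other core calls were 0.18 for Psma3, 0.17 for Psma6, 0.14 for Psma7 and 0.14 for Psmb4, with adjusted p of 0.017, 0.024, 0.046 and 0.045. Psma7 without the block turned to -0.026 when siLmod1 line 4 was left out. The catalytic gene Psmb6 was lower in 5 of 5 lines and did not pass (-0.12, adjusted p = 0.06).

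Psmd11 (RPN6), the lid subunit that braces the lid against the core, was the one gene of either particle whose groups did not overlap. It had 74, 82.7, 75.6, 79.9 and 75.2 TPM in siLmod1, against 94.3, 88.6, 105, 92.3 and 86.2 TPM in siCtrl. Every siLmod1 library was below every siCtrl library, a pattern that 0.916% of all genes showed, and no member was above siCtrl without overlap (1.58% of all genes). Its log2 fold change was -0.31 (SE 0.08, adjusted p = 0.23) with the group alone, -0.31 (SE 0.053, adjusted p = 0.002) with the block and -0.28 (adjusted p = 0.017) without line 1. Psmd3 (RPN3), another lid subunit, had 135, 139, 145, 123 and 103 TPM in siLmod1, against 152, 149, 155, 142 and 120.1 TPM in siCtrl. The ranges overlapped, siLmod1 was lower in 5 of 5 lines, and the blocked log2 fold change was -0.20 (SE 0.047, adjusted p = 0.0091). Psmc3 (RPT5) had 606, 713, 661, 596 and 594 TPM in siLmod1, against 610.1, 818, 761, 614 and 665 TPM in siCtrl, lower in 5 of 5 lines at -0.17 (adjusted p = 0.028) with the block. Psmc3 shares 215 exonic bases with Slc39a13 on the opposite strand, whose reads cannot be told apart there. The lid calls in the other direction were Psmd14 at 0.18 (adjusted p = 0.018), Psmd6 at 0.14 (adjusted p = 0.044) and Psmd13 at 0.14 (adjusted p = 0.043). Psmd13 starts 99 bases from Sirt3, the mitochondrial sirtuin gene, and shares 342 exonic bases with it. Sirt3 had a log2 fold change with the block of 0.39 (adjusted p = 0.011) in siLmod1.

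Among subunits that did not pass in siLmod1, the blocked log2 fold change was -0.014 for Psma1, 0.14 for Psma4, 0.13 for Psmb1, 0.025 for Psmb2, 0.0093 for Psmb3 and 0.016 for Psmb7. In the base it was -0.057 for Psmc1, 0.11 for Psmc2, 0.061 for Psmc4, 0.086 for Psmc5, 0.046 for Psmc6, 0.059 for Psmd1, 0.093 for Psmd2 and 0.095 for Psmd4. In the lid it was 0.14 for Psmd7, 0.15 for Psmd8 and 0.11 for Psmd12.

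Median log2 fold changes in siLmod1 were 0.13 for the core and 0.090 for the regulatory particle with the group alone, against -0.013 for all genes, and 0.14 and 0.093 with the block. The alpha ring had a blocked median of 0.17 and the beta ring one of 0.025. By line, the core median was 0.19, 0.098, 0.066, 0.17 and 0.18, and the regulatory median 0.18, 0.049, 0.031, 0.0997 and 0.13, so that the core was above the regulatory particle in each of the 5 lines. Of the 31 genes, 16 were higher in siLmod1 in all 5 lines (17.3% of all genes were) and 5 were lower in all 5 (18.1%). Smooth muscle and pericyte markers moved in the same comparison: with the block 5 of 6 tested fell, their summed level was 30.6 to 74.3 TPM in siLmod1 and 49.1 to 154 TPM in siCtrl, and 2 of the 7 had under 1 TPM in each group. Among myoblast markers 3 of 7 fell (Myog, Pax7, Cdh15), with sums of 8634 to 11680 TPM in siLmod1 and 9350 to 12570 TPM in siCtrl. Among fibroblast markers 2 of 5 tested fell (Col3a1 and Col1a1), with sums of 29.5 to 99.9 TPM in siLmod1 and 38.8 to 175.5 TPM in siCtrl. Col1a1 was barely detected, at 0 to 0.432 TPM in siLmod1 and 0.138 to 5.53 TPM in siCtrl, where only line 3 was above 1 TPM. Mitochondrial genes held 3.26, 2.63, 2.51, 3.30 and 2.40% of counts in siLmod1, against 2.73, 2.35, 2.46, 2.22 and 1.92% in siCtrl, and the share was higher in siLmod1 in 5 of 5 lines. The part of these lists and of this share in the result was not tested.

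**Figure D4:**
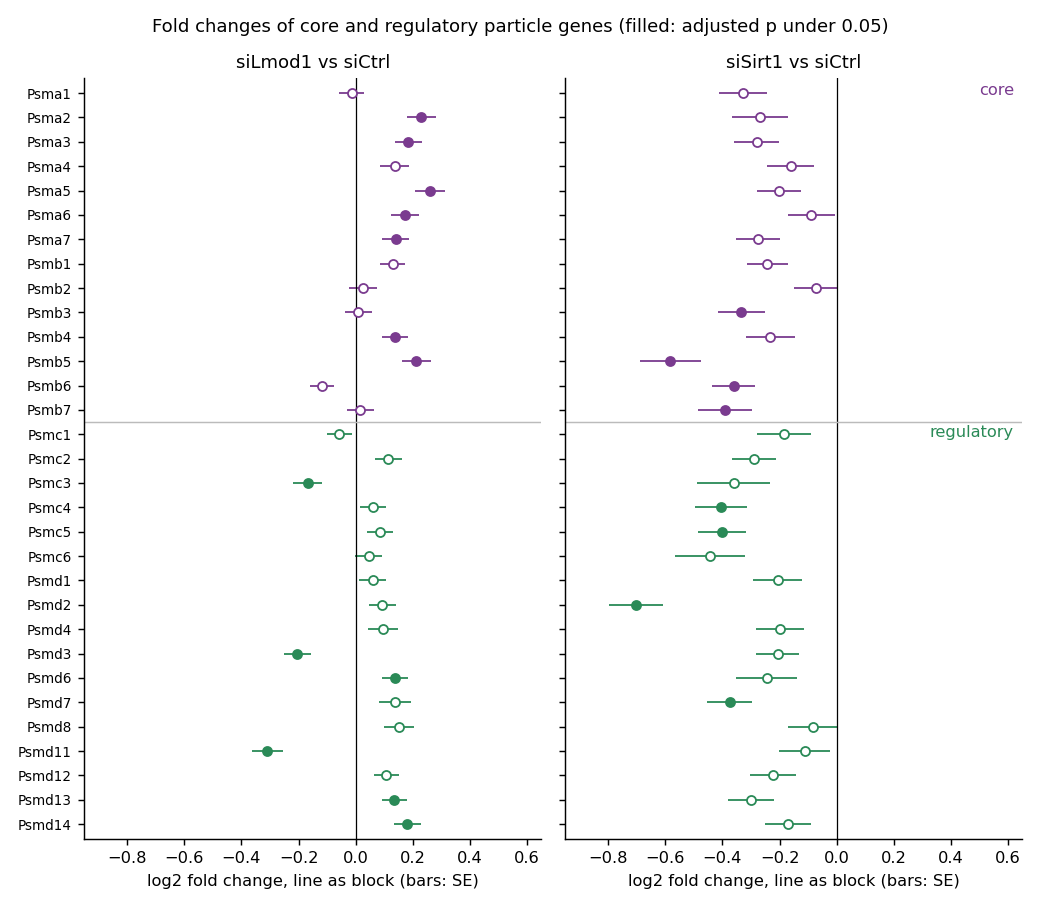
Blocked log2 fold change with its SE for the core (purple) and regulatory (green) genes, siLmod1 over siCtrl at left and siSirt1 over siCtrl at right, with filled points for an adjusted p under 0.05. At left the points lie within 0.31 of 0 on both sides, and at right all 31 lie below 0, with Psmd2 at -0.70 and Psmb5 at -0.58 lowest.

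Set directly against siLmod1, siSirt1 had lower levels of most subunits. With the block 22 of 42 members fell and 1 rose, in a fit that called 15.9% of 14998 genes (8.43% lower, 7.43% higher). They included 10 of 14 core and 10 of 17 regulatory genes, the chaperone Psmd5 and the activator Psme2. With the group alone, edgeR called 0 members and 1.53% of genes. An unadjusted p under 0.05 was seen for 17 of 42 members and 2475 of 14998 genes. DESeq2 called 8 members and 1150 of 14998 genes. All 14 core genes and 13 of 17 regulatory genes were lower in siSirt1 in every line, 27 of 31 in all, against 14.9% of all genes. The median log2 fold change was -0.39 for the core and -0.36 for the regulatory particle with the group alone, against 0.022 for all genes. With the block 1 fibroblast marker rose of 5 tested (Col3a1), 1 smooth muscle and pericyte marker rose of 6, 1 myoblast marker rose and 2 fell of 7, and 1 endothelial marker fell of 3. Fibroblast markers summed to 38.3 to 279.6 TPM in siSirt1 and 29.5 to 99.9 TPM in siLmod1, smooth muscle and pericyte markers to 49.0 to 135 TPM in siSirt1 and 30.6 to 74.3 TPM in siLmod1, and their part in the result was not tested. Without line 1 the blocked fit called 9 of 43 members and 1042 of 15013 genes. The 9 members were all lower: Psma3, Psma5, Psmb1, Psmb5, Psmc4, Psmc5, Psmd2, Psmd7 and Psmd13.

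Psmd2 and Psmb5 had the lowest log2 fold changes of the core and regulatory genes here too. Psmd2 had 389, 346, 301, 321 and 219.8 TPM in siSirt1, against 578, 515, 472, 549.7 and 424 TPM in siLmod1. The groups did not overlap, and the blocked log2 fold change was -0.81 (SE 0.11, adjusted p = 0.0042). Psmb5, with the siSirt1 and siLmod1 values given above, differed by -0.81 (SE 0.11, adjusted p = 0.0043), and without line 1 by -0.77 (adjusted p = 0.021). Psmc4, Psmc5 and Psmd13 were the other members without overlap between these groups, which 1.83% of all genes showed in the lower direction, and none was without overlap in the higher direction (3.61%). Psmc5 had 459, 448, 455, 393 and 321 TPM in siSirt1, against 567, 557, 560.3, 560.0 and 470.2 TPM in siLmod1, with a blocked log2 fold change of -0.50 (SE 0.094, adjusted p = 0.013). Psmc4 stood at -0.48 (adjusted p = 0.013) and Psmd13 at -0.45 (adjusted p = 0.013) with the block. Sirt3, the divergent neighbour of Psmd13, stood at -0.50 (adjusted p = 0.032). Psmd11 was the exception in the regulatory particle, at 0.18 (adjusted p = 0.26), being higher in siSirt1 in 3 of 5 lines. Both knockdowns had each been measured against the same siCtrl libraries, so this direct contrast is not a further replicate of the earlier ones.

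Summed over genes, the core particle had 4918 ± 539.6 TPM in siLmod1, 3971 ± 465 TPM in siSirt1 and 4351 ± 413 TPM in siCtrl (SD, n = 5), and the regulatory particle had 5194 ± 337, 4369.7 ± 575 and 4923 ± 291 TPM. The ratio of core to regulatory transcripts was 0.975, 0.905, 0.951, 1.02 and 0.871 in siLmod1 lines, 0.927, 0.838, 0.902, 0.987 and 0.902 in siSirt1 lines and 0.909, 0.861, 0.886, 0.947 and 0.811 in siCtrl lines. The ratio was above siCtrl in 5 of 5 lines in siLmod1 and in 4 of 5 in siSirt1, the exception being line 2. The 3 groups overlapped, with means of 0.945 ± 0.0597, 0.911 ± 0.0537 and 0.883 ± 0.051. No test was run on these sums.

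Immunoproteasome subunits, which replace the catalytic ones in immune cells and after interferon, were unequal in these myoblasts. Psmb10, which takes the place of Psmb7, had 38.2, 33.9, 55.6, 41.4 and 22.1 TPM in siLmod1, 25.1, 23.9, 32, 29.1 and 29.5 TPM in siSirt1 and 33.5, 29.8, 36.7, 30.9 and 18.8 TPM in siCtrl. It rose in siLmod1 with the block at 0.29 (adjusted p = 0.028), had 0.32 (adjusted p = 0.053) without line 1, and had -0.21 (adjusted p = 0.45) in siSirt1 against siCtrl. Psmb9, which takes the place of Psmb6, had 0.68, 0.208, 1.03, 2.52 and 1.66 TPM in siSirt1, 0.268, 0.117, 0.5, 0.698 and 0.55 TPM in siLmod1 and 0.325, 0.233, 0.7, 0.934 and 0.573 TPM in siCtrl. These levels came from 175 reads in siSirt1, 73 in siLmod1 and 98 in siCtrl. Psmb9 was the 1 member that rose in siSirt1 against siLmod1, higher in 5 of 5 lines at 1.27 (SE 0.29, adjusted p = 0.024) with the block and 1.30 (adjusted p = 0.064) without line 1. Against siCtrl it had 0.83 (adjusted p = 0.14) in siSirt1 and -0.43 (adjusted p = 0.24) in siLmod1.

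Psmb9 and Tap1, the peptide transporter gene, lie on opposite strands and share 212 exonic bases, where reads of these unstranded libraries cannot be told apart. Tap1 had 15.1, 3.38, 9.74, 20.8 and 14.3 TPM in siSirt1, 5.56, 3.38, 5.64, 8.57 and 5.14 TPM in siLmod1 and 8.78, 3.39, 6.38, 13.8 and 7.91 TPM in siCtrl. It was 0.91 log2 units higher in siSirt1 than in siLmod1 with the block (adjusted p = 0.021). Psmb8, which takes the place of Psmb5, had 59 reads in siLmod1, 88 in siSirt1 and 42 in siCtrl and was not tested. Its highest values were 2.1, 1.1 and 1.02 TPM in siSirt1 lines 7, 3 and 4 and 1.45 TPM in siLmod1 line 3. The 8 leukocyte markers summed to 5.35 to 12.2 TPM in siSirt1, 4.96 to 8.86 TPM in siLmod1 and 5.68 to 8.91 TPM in siCtrl, and their part in the immunoproteasome values was not tested. The interferon-inducible activator Psme2 had 51.1, 60.3, 42.1, 70.8 and 90.4 TPM in siLmod1, 35.3, 47.8, 27.7, 58.7 and 89.3 TPM in siSirt1 and 33.7, 51.4, 37.3, 45 and 68.6 TPM in siCtrl. It rose in siLmod1 with the block (0.37, adjusted p = 0.0055) in 5 of 5 lines. Its partner Psme1 did not pass in either knockdown at 0.14 (adjusted p = 0.14) in siLmod1 and -0.13 (adjusted p = 0.72) in siSirt1.

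**Figure D5:**
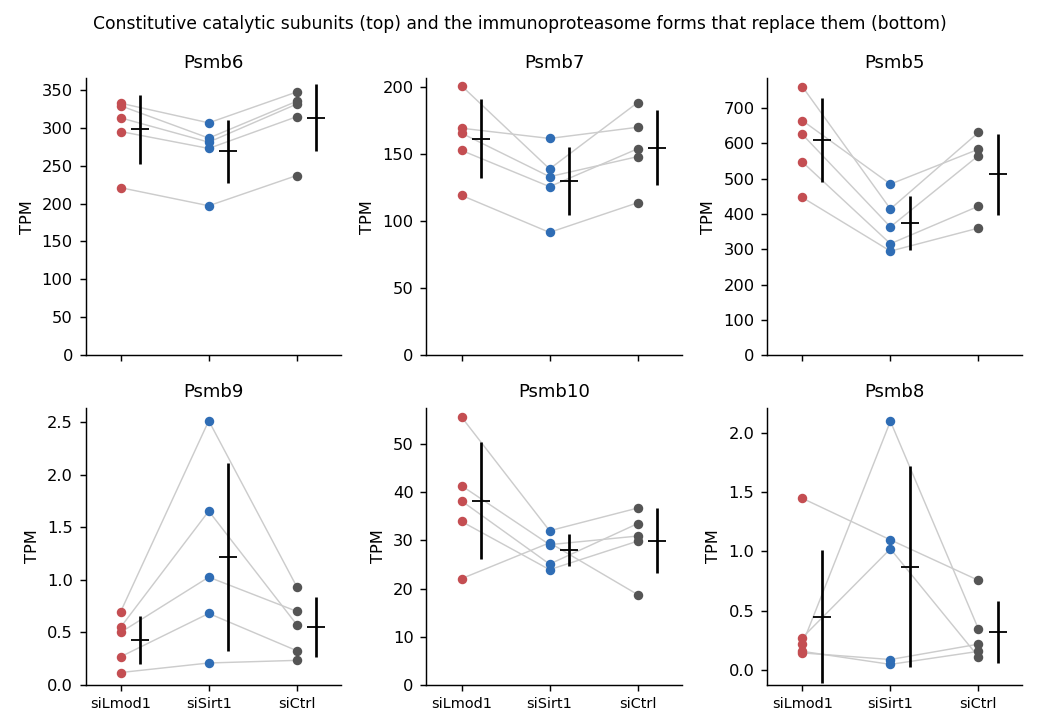
TPM of the catalytic subunits Psmb6, Psmb7 and Psmb5 (top) and of Psmb9, Psmb10 and Psmb8, which replace them in the immunoproteasome (bottom), with 1 point per library, grey lines joining the libraries of a line, and mean ± SD beside each group. The top genes dip in siSirt1 in every line relative to siCtrl, while Psmb9 reaches 2.52 TPM in siSirt1 line 4.

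Against siCtrl none of the chaperone genes Psmd5, Psmd9 and Psmd10 or the activator genes Psme3 and Psme4 passed with the block in either knockdown. Psmd5 had 0.069 (adjusted p = 0.48) in siLmod1 and -0.34 (adjusted p = 0.083) in siSirt1, and it fell in siSirt1 against siLmod1 at -0.42 (adjusted p = 0.014). Psmd9 had -0.059 (adjusted p = 0.45) in siLmod1 and -0.024 (adjusted p = 0.91) in siSirt1. Psmd10, known also as the oncoprotein gankyrin, had 0.12 (adjusted p = 0.19) in siLmod1 and -0.053 (adjusted p = 0.76) in siSirt1. Psme3 had -0.07 (adjusted p = 0.28) in siLmod1 and -0.071 (adjusted p = 0.64) in siSirt1, and Psme4 had 0.043 (adjusted p = 0.62) and -0.19 (adjusted p = 0.32). The symbol matches Psme2b and Psmc3ip did not pass against siCtrl in either knockdown.

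Genes that control proteasome transcription were read from a list of 9. With the block 5 rose and 1 fell in siLmod1 (12.9% and 16.5% of all genes did), and with the group alone none of the list was called in either knockdown. Nfe2l1, the gene of NRF1, had 537, 462, 689.6, 402 and 503 TPM in siLmod1, against 391, 334, 494, 303 and 387 TPM in siCtrl, with a blocked log2 fold change of 0.39 (SE 0.047, adjusted p = 3.0e-04). It was higher in 5 of 5 lines with overlapping ranges, and in siSirt1 it stood at -0.08 (adjusted p = 0.59). Mafg, a small Maf partner of NRF1, stood at 0.45 (adjusted p = 1.9e-04) in siLmod1 and 0.37 (adjusted p = 0.043) in siSirt1, where it was the only one of 8 tested that passed and did not pass without line 1 (adjusted p = 0.13). Nfe2l2 at 0.23 (adjusted p = 0.0054) and Ngly1, the deglycosylase that processes NRF1, at 0.23 (adjusted p = 0.022) rose in siLmod1, as did the protease gene Ddi2 at 0.17 (adjusted p = 0.043). Mafk fell at -0.44 (adjusted p = 0.029). Without line 1, Ngly1, Ddi2 and Mafk did not pass in siLmod1 (adjusted p = 0.074, 0.098 and 0.13). The list's median was 0.17 in siLmod1, against -0.0096 for all genes, and -0.084 in siSirt1, against 0.0068.

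Of 15 assembly factors and other partners, 14 were matched and tested. In siLmod1, 5 rose with the block and 1 fell (12.9% and 16.5% of all genes did). They were Ecpas, a proteasome adaptor (0.37, adjusted p = 5.1e-04), Uchl5, a deubiquitinase of the regulatory particle (0.35, adjusted p = 0.0032), Zfand5 (0.25, adjusted p = 0.0044), the core maturation factor Pomp and Txnl1, while Usp14, the other proteasome deubiquitinase, fell (-0.25, adjusted p = 0.013). Without line 1, Pomp, Txnl1 and Usp14 did not pass (adjusted p = 0.14, 0.11 and 0.07). In siSirt1 none passed with the block, and the list's median was -0.099, against 0.078 in siLmod1. Of 15 ubiquitin and delivery genes, Ubqln2 and Uba6 rose in siLmod1 with the block at 0.33 (adjusted p = 9.0e-04) and 0.28 (adjusted p = 0.0055), where 12.9% of all genes rose. Of 10 antigen processing genes, H2-D1 and B2m rose in siSirt1 with the block at 1.09 (adjusted p = 0.017) and 0.42 (adjusted p = 0.033), and Erap1, which trims peptides, fell (-0.65, adjusted p = 0.049), where 2.72% of all genes rose and 4.35% fell. Without line 1 none of the 3 passed, with adjusted p of 0.054 for H2-D1, 0.1 for B2m and 0.13 for Erap1. In siLmod1 Erap1 and H2-K1 rose and Irf1, Tap1 and B2m fell with the block, where 12.9% of all genes rose and 16.5% fell. Erap1 and Irf1 were those that still passed without line 1. With the group alone none of the partner, ubiquitin or antigen processing genes was called in either knockdown.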

How the data were processed

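Poly(A) RNA was sequenced with unstranded TruSeq v2 libraries in 150 bp reads, per the labels. Raw counts for each Ensembl gene ID and, separately, TPM values computed by the authors were deposited. DESeq2 and mm10 are named per the submitters' processing notes. No aligner, read counter or annotation version is given in the sources consulted. Deposited tables of normalized counts were not used. Symbols and exon overlaps came from GENCODE mouse release 21, which matched 49056 of 49315 IDs. The libraries were grouped by title, and a library listed in 2 tables held the same values in both.

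Each pair of groups was fitted separately on the deposited counts with edgeR 4.0.16 (limma 3.58.1, R 4.3.3): filterByExpr, TMM scaling, glmQLFit and glmQLFTest, with Benjamini-Hochberg adjustment over all genes tested and a threshold of 0.05. The group-only fit is the main one, and the fit with the line as a block is given beside it where it changes calls. The study's design text names 5 primary lines. Correlations over 15716 genes were 0.253 to 0.862 for the 15 same-number pairs and -0.493 to 0.269 for 60 pairs of different numbers. The 2 ranges overlapped through the siSirt1 library of line 1, whose line is in doubt. Any adjusted p without another tool named is edgeR's. TPM served for levels and overlap of groups, log2 CPM for differences by line. Alternatives were DESeq2 1.42.0, RLE, upper-quartile and library-total scaling, no filter, a fit on all 15 libraries and leaving out each library or line. The fits were tested on simulated counts for siLmod1 against siCtrl. The group-only fit recovered 0 of 100 genes changed 1.5-fold and 84 of 100 changed 2-fold. The blocked fit recovered 100 of 100 at either size, with 7 false calls. The spreads between lines and within a line were set in the simulation, alike for every gene. Only genes with higher counts were changed, so these rates of either fit need not hold for the real libraries. Tables used scipy 1.17.1, pandas 2.3.3 and numpy 2.4.6 under Python 3.11.15.

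Members and gene lists were chosen with earlier results of these data known. Full statistics were given for called members (at most 10 per comparison and direction), the catalytic and immunoproteasome subunits, the highest and lowest member of each particle, and up to 4 genes per list. Further list genes were named where a count was 6 or fewer, after their values were seen. A result of the ubiquitin and delivery list is not reported here. Counting intervals and floors cover counting error only, since reads carry no molecular identifiers.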

Additional observations from a re-analysis of the deposited data

Results flagged for a closer look

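In 13 of 129 sets of 5 libraries, 1 library stood far from the other 4 in TPM. Chance flags about 1 independent set in 20, and these sets share libraries and lines, so they are not independent. Line 7 was the lowest in most of them. In siLmod1 line 7, Psma6 stood at 292 TPM, Psmb1 at 504 TPM, Psmb2 at 258 TPM and Psmc5 at 470.2 TPM. In siSirt1 line 7, Psmb2 stood at 251.5 TPM, Psmc4 at 197 TPM and Psmd3 at 106 TPM, while Psmc3ip was the highest of its set at 9.14 TPM. In siCtrl line 7, Psmb2 stood at 259 TPM and Psmb3 at 181 TPM. The other 3, each the highest of its set, were Psmc6 at 439 TPM in siSirt1 line 2, Psmd8 at 451 TPM in siSirt1 line 4 and Psmb8 at 1.45 TPM in siLmod1 line 3. No explanation was tested.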

How the results depend on the processing

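Counts of calls moved with the pairing and, for members in either knockdown against siCtrl, with the scaling, and the cause was not tested. Genes called at an adjusted p under 0.05 in siLmod1 against siCtrl numbered 17 with the group alone, 4430 with the replicate block, 357 with DESeq2 and 4052 with DESeq2 and the block. With the block they numbered 4426 under RLE, 4558 under upper-quartile and 4719 under library-total scaling. They numbered 6 with no filter, 38 in a fit on all 15 libraries and 1427 in that fit with the block. The members among them numbered 0 with the group alone, 15 with the block, 1 with DESeq2, 11 with DESeq2 and the block, 15 (RLE), 19 (upper quartile) and 23 (library totals) in the other blocked fits, and 3 in the blocked fit on all libraries.

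In siSirt1 against siCtrl the same counts of genes were 19 with the group alone, 1054 with the block, 390 with DESeq2, 2016 with DESeq2 and the block, and 7 with library totals. Blocked fits gave 1046 under RLE, 1038 under upper-quartile and 1238 under library-total scaling. No filter gave 7, all libraries 150, and all libraries with the block 2530. Members called were 0, and 8 with the block, 2 with DESeq2, 16 with DESeq2 and the block, 7 (RLE), 6 (upper quartile), 2 (library totals) and 20 (all libraries) in the other blocked fits. The core median was -0.15 under library totals and the regulatory median -0.13 under library totals with the block.

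In siSirt1 against siLmod1 genes called were 229, and 2379 with the block, 1150 with DESeq2, 3289 with DESeq2 and the block, 2386, 2380 and 2313 in blocked fits under RLE, upper-quartile and library-total scaling, 90 with no filter, 554 in the fit on all libraries and 4210.0 in that fit with the block. Members called were 0, and 23 with the block, 8 with DESeq2, 27 with DESeq2 and the block, 23 (RLE), 23 (upper quartile) and 21 (library totals) in blocked fits, 6 in the fit on all libraries and 31 in that fit with the block.

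Leaving out 1 library gave 3 to 10 genes in siLmod1, 3 to 13 in siSirt1 and 54 to 247 in siSirt1 against siLmod1, with 0 to 0, 0 to 0 and 0 to 1 members. Leaving out line 1, 2, 3, 4 or 7 in the blocked fits gave 2833, 3758, 3534, 4264 and 3314 genes with 6, 13, 10, 13 and 7 members in siLmod1 against siCtrl, 332, 411, 398, 525 and 580.0 genes with 1, 2, 2, 1 and 1 members in siSirt1 against siCtrl, and 1042, 1771, 946, 1395 and 1662 genes with 9, 18, 12, 11 and 14 members in siSirt1 against siLmod1. Median log2 fold changes kept their sign throughout. Without the block, leaving out 1 library gave core 0.058 to 0.19 and regulatory 0.041 to 0.12 in siLmod1, core -0.33 to -0.19 and regulatory -0.36 to -0.19 in siSirt1, and core -0.46 to -0.29 and regulatory -0.41 to -0.27 in siSirt1 against siLmod1. With the block the ranges were 0.12 to 0.15 and 0.081 to 0.11, -0.31 to -0.25 and -0.29 to -0.19, and -0.42 to -0.36 and -0.42 to -0.30. Psma7 in siLmod1 turned to -0.026 without siLmod1 line 4, the 1 reversal among named genes, in a range up to 0.28 without siCtrl line 4. With 5 lines and unstranded reads, small shifts of single subunits rest on the pairing, and shares of reads from overlapping genes are unknown.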
